A study of Mus musculus with 8 samples.

Results

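The collagens are a gene family whose products form the fibrils, networks and filaments of the extracellular matrix. Here they were followed in thoracic perivascular fat, the adipose tissue that surrounds the thoracic aorta, of mice. A member was any gene whose symbol has the form Col, number, a, number and which has a probe set of its own in the platform annotation. That gave 42 of the 18782 genes measured. Col7a1 and Col9a3 share their probe sets with another gene and were left out of every count. Where a gene had several probe sets, which was so for 4 members, the brightest of them on average stood for the gene.

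Gene expression was measured on 4 arrays labelled RictoraP2KO and 4 arrays labelled control, 1 array per sample. The control genotype is Rictorfl/fl, a floxed allele of Rictor with no Cre named, and in RictoraP2KO mice Rictor is deleted by Cre driven from the aP2 (Fabp4) promoter, in brain as well as fat per the series title. All mice were male, aged 17 to 22 weeks, untreated, fasted overnight and killed at 9 am. Rictor is the defining subunit of mTOR complex 2, a kinase complex that activates Akt downstream of insulin. Values are log2 RMA signals, and every difference is the RictoraP2KO mean less the control mean in log2 units, with its standard error (SE). Tests are limma's moderated test, Benjamini-Hochberg adjusted across the 28371 probe sets, and a gene was called at an adjusted p under 0.05.

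The signal of Rictor itself was not lower under the knockout label. The place of its probes relative to the deleted exons is not known here, so the signal may not report the deletion at all. It stood at 6.80, 6.66, 6.60 and 6.68 in RictoraP2KO replicates 1 to 4 and at 6.49, 6.56, 6.49 and 6.61 in control replicates 1 to 4 (difference 0.145, SE 0.063, limma adjusted p = 0.685), higher on average in the arrays labelled RictoraP2KO with the groups overlapping, so every direction below rests on the labels. Of the adipocyte markers 7 of 8 and of the brown fat markers 6 of 6 lay above the array median of 3.76. The exception was Lep, which encodes leptin. All 6 heart muscle markers and all 8 macrophage markers lay above it as well, so this count cannot by itself check the tissue label. A few libraries carried signal of another tissue. Relative to the mean over the 8 arrays, lung epithelial markers were raised by 2.98 in control replicate 2, neuron markers by 1.23 in control replicate 3, and skeletal muscle markers by 1.29 in RictoraP2KO replicate 2. Below, values are also given without these 3 arrays for the members described in every array and for others above the array median whose sign turned or whose size moved by more than 1.5 times. That comparison sets RictoraP2KO replicates 1, 3 and 4 against control replicates 1 and 4, so its p-values also reflect fewer arrays. Heart muscle markers varied too, with array means of 2.01 in RictoraP2KO replicate 2 and 0.85 in control replicate 2. They were -1.17 in control replicate 3 and -1.55 in RictoraP2KO replicate 1. Leaving out the 3 arrays does not remove this spread, since RictoraP2KO replicate 1 (-1.55) and control replicate 1 (0.30) remain.

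A collagen molecule is a trimer of chains, and chains of several genes often assemble together. Types I, III and V build the banded fibrils that give tissue its tensile strength. Type IV forms the sheet-like network of basement membranes, which surround each fat cell, each smooth muscle cell and the endothelium, and types XV and XVIII are multiplexins attached to those membranes. Type VI makes beaded filaments around fat cells, type VIII is a short-chain network collagen of blood vessels, and types XII and XIV decorate the surface of fibrils. Fibroblasts and stromal progenitors make most fibrillar collagen in adipose tissue. In a whole-tissue sample, fewer cells of a type and less RNA per cell cannot be told apart.

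Sequences from the RefSeq promoter table (GRCm38.p6) are shown for 4 chains above the array median: the type IV pair and Col8a1, each with an unadjusted p under 0.05, and Col1a2, as the type I chain with an entry. Col4a1 and Col4a2 lie head to head on chromosome 8 and are transcribed away from each other from adjoining starts, which is why their start region is shown as a single stretch. The annotated starts are 11312826 for Col4a1, on the minus strand, and 11312805 for Col4a2, on the plus strand, so the 5′ ends of the annotated transcripts overlap by 22 bases. Capitals in the first sequence mark those 22 bases. In the other sequences, the 250 bases before the annotated start of Col1a2 and Col8a1, capitals mark matches on either strand to CCAAT, the core of the box read by the factor NF-Y, to GGGCGG, the GC box read by Sp1, to TATAAA and to CACGTG, the E-box of the core clock. The stretches are chr8:11312801-11312830 on the plus strand, chr6:4505368-4505617 on the plus strand and chr16:57754738-57754987 on the minus strand.
Col4a1 and Col4a2 start region: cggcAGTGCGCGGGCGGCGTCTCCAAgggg
Col1a2 upstream: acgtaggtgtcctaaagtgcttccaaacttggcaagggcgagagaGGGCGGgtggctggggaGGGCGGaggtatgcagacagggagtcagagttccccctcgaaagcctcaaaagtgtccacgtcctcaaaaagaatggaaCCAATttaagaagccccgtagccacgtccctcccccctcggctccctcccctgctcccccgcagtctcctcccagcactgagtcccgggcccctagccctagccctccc
Col8a1 upstream: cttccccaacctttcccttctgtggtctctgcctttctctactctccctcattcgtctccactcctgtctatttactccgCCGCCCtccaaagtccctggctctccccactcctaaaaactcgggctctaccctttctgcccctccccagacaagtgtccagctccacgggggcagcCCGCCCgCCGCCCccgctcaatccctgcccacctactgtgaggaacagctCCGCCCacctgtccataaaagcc

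Across the family, 34 of the 42 genes had an entry in that table. GGGCGG, or CCGCCC on the other strand, was present in 20 of these 34 genes (58.8%), against 35.4% of all 27025 genes with an entry. CCAAT, or ATTGG, was present in 12 (35.3%, against 37.5% of all genes) and TATAAA, or TTTATA, in 5 (14.7%, against 14.3%). The palindrome CACGTG was present in 0 of 34, against 6.86% of all genes, which says only that these letters are not in the 250 bases searched. In Col4a1 an ATTGG begins 145 bases before the start, and in Col4a2 a CCAAT begins 32 bases before its own. Motif matches are descriptions of the letters and were not compared with the array values.

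No collagen gene was called different between the groups. Of the 42 members 0 had an adjusted p under 0.05, on an array where 0.00352% of probe sets and 0.00532% of genes did (limma); the members' adjusted p-values ran from 0.605 to 0.983. At an unadjusted limma p under 0.05 there were 4 members higher in RictoraP2KO, Col4a1, Col1a1, Col8a1 and Col4a2, and 1 lower, Col13a1. The background for that count is 2.92% of all genes higher and 3.56% lower, or 6.48% in either direction. The count of 5 was 3 without RictoraP2KO replicate 2, without control replicate 2 or without control replicate 4. It was 4 without RictoraP2KO replicate 1, where 6.71% of all genes had such a p. For the other omissions named here the share of all genes was not taken. Groups did not overlap for 1 member that was higher, Col4a1, and for 1 that was lower, Col13a1, where 1.5% and 2.07% of all genes had no overlap in these directions. Over all 42 members the median difference was 0.022, with 22 above 0 and 20 below, beside a median of -0.008 over all genes, of which 46.8% were above 0.

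**Figure D1:**
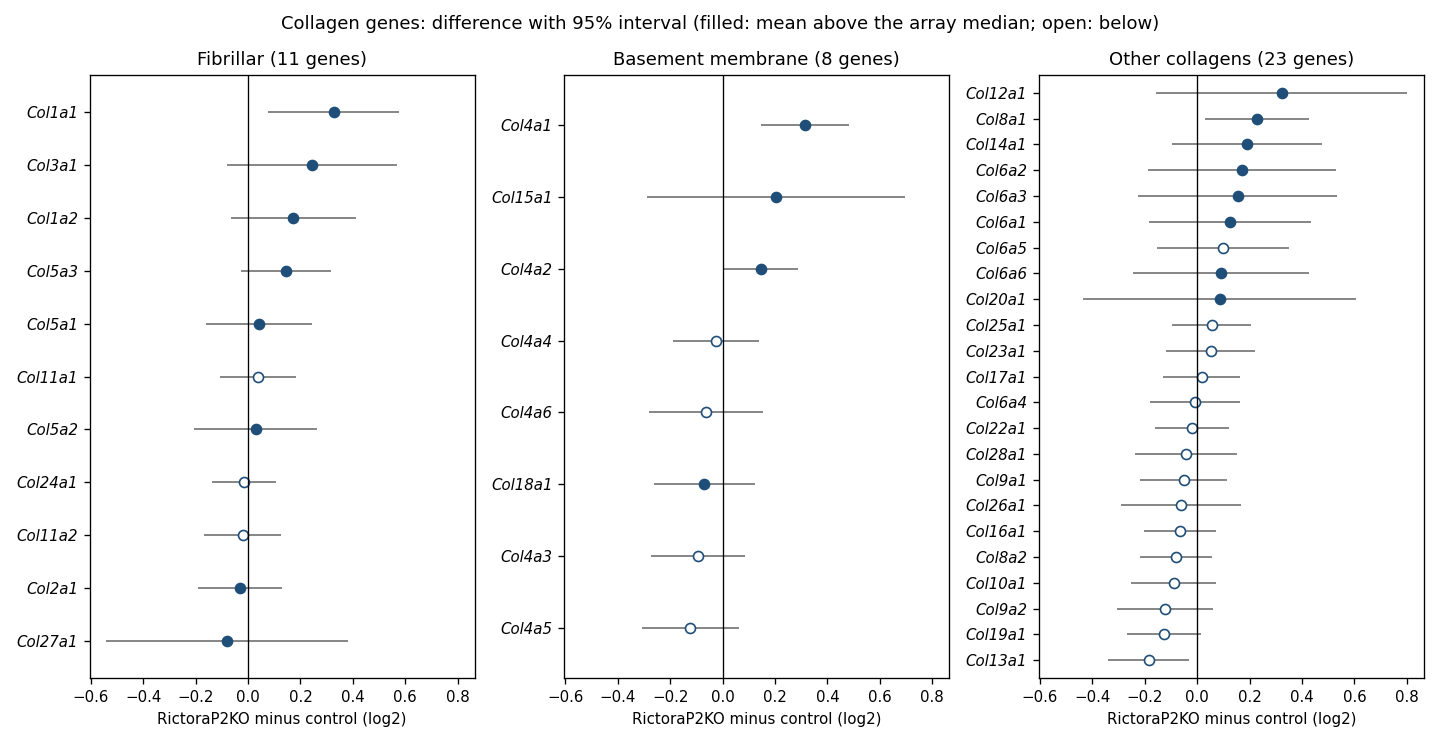
Difference between RictoraP2KO and control (log2, x axis) for each of the 42 collagen genes, in 3 panels by class, with the limma 95% interval as a grey line. Filled points are genes with a mean signal above the array median, open points genes below it; the intervals of Col1a1, Col4a1, Col4a2 and Col8a1 lie above 0 and that of Col13a1 below it, and 17 of the 20 filled points lie above 0.

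Type IV collagen gave the smallest p-value of the family. Col4a1 encodes a chain of the ubiquitous type IV network. Its signal was 6.08, 6.33, 6.18 and 6.15 in RictoraP2KO replicates 1 to 4 and 5.81, 5.82, 5.87 and 5.99 in control replicates 1 to 4. Every RictoraP2KO array lay above every control array, with a gap between 5.99 and 6.08. The difference was 0.32 (SE 0.072, 95% interval 0.15 to 0.48), or 1.24-fold on the linear scale, and did not pass (limma unadjusted p = 0.0019, adjusted p = 0.605). With the lung, neuron and skeletal muscle arrays left out it was 0.24 (unadjusted p = 0.041), and between 0.27 and 0.35 as each array was left out in turn.

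Col4a2 encodes the partner chain and shares the start region shown above. Its signal was 6.07, 6.16, 6.04 and 6.13 in RictoraP2KO replicates 1 to 4 and 6.06, 5.87, 5.92 and 5.97 in control replicates 1 to 4. Control replicate 1 lay within the RictoraP2KO range, and the other 3 control arrays lay below it. The difference was 0.15 (SE 0.061, 95% interval 0.0065 to 0.29; limma unadjusted p = 0.042, adjusted p = 0.673). Whether it differs from that of Col4a1 was not tested. Without the 3 arrays it was 0.066.

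The other type IV chains, Col4a3 to Col4a6, build the specialised networks of kidney, lung and other epithelia, with Col4a5 and Col4a6 on the X chromosome. Their mean signals lay below the array median, where low expression and background cannot be told apart. Differences were -0.093 for Col4a3, -0.024 for Col4a4, -0.12 for Col4a5 and -0.064 for Col4a6. Of the multiplexins, Col15a1 differed by 0.20 (SE 0.215) and Col18a1, the source of endostatin, by -0.070 (SE 0.083). Col15a1 ranged from 4.01 to 4.96 in RictoraP2KO arrays and from 3.82 to 4.59 in control arrays, and its difference was 0.037 without RictoraP2KO replicate 1 and -0.0285 without the 3 arrays. For the 8 basement membrane genes together the median difference was -0.044, with 3 above 0 (Col4a1, Col4a2 and Col15a1).

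Among fibrillar collagens, Col1a1 had the widest difference with all arrays. Col1a1 encodes the main chain of type I collagen. Its signal was 6.13, 6.17, 5.93 and 5.76 in RictoraP2KO replicates 1 to 4 and 5.81, 5.53, 5.56 and 5.77 in control replicates 1 to 4. RictoraP2KO replicate 4 lay at the level of control replicates 1 and 4, and the other 3 RictoraP2KO arrays lay above all controls. The difference was 0.33 (SE 0.109, 95% interval 0.080 to 0.57; limma unadjusted p = 0.015, adjusted p = 0.651). Without the 3 arrays with signal of another tissue it was 0.15 (unadjusted p = 0.28), less than the value from all arrays by more than 1.5 times.

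Col1a2 encodes the second chain of the type I molecule. Its signal was 6.42, 6.15, 5.995 and 6.02 in RictoraP2KO replicates 1 to 4 and 5.84, 6.01, 5.94 and 6.11 in control replicates 1 to 4. The groups overlapped, with RictoraP2KO replicate 1 well above the rest. Col1a2 differed by 0.17 (SE 0.104; limma adjusted p = 0.767), by 0.083 without that array and by 0.17 without the 3 arrays.

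Col3a1 encodes type III collagen, a homotrimer of vessel walls and soft tissue that forms fibrils together with type I. Its signal was 5.84, 5.52, 5.71 and 5.17 in RictoraP2KO replicates 1 to 4 and 5.51, 5.32, 5.21 and 5.22 in control replicates 1 to 4. RictoraP2KO replicate 4 was the lowest of all 8 arrays and RictoraP2KO replicates 1 and 3 were the highest. The difference was 0.24 (SE 0.141; limma adjusted p = 0.762), 0.15 without RictoraP2KO replicate 1, 0.37 without RictoraP2KO replicate 4 and 0.20 without the 3 arrays.

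The remaining fibrillar genes lay closer to 0. Type V collagen, which sets fibril diameter, gave differences of 0.040 for Col5a1, 0.028 for Col5a2 and 0.14 for Col5a3 (SE 0.075), and the dimmer probe set of Col5a1 had the opposite sign (-0.029). Without the 3 arrays Col5a1 differed by 0.0115 and Col5a2 by -0.0355. The cartilage chains Col2a1, Col11a1 and Col11a2 differed by -0.030, 0.038 and -0.020, and Col2a1 by 0.031 without the 3 arrays. Col24a1 differed by -0.016 and Col27a1 by -0.080, the latter with values from 5.26 to 6.10 over the 8 arrays. The median of the 11 fibrillar genes was 0.038, with 7 above 0. Of 7 cartilage markers listed beside them, such as Acan, 6 lay below the array median, and their summed linear signal was 38.8 to 46.9 in RictoraP2KO arrays and 42.6 to 44.3 in control arrays.

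**Figure D2:**
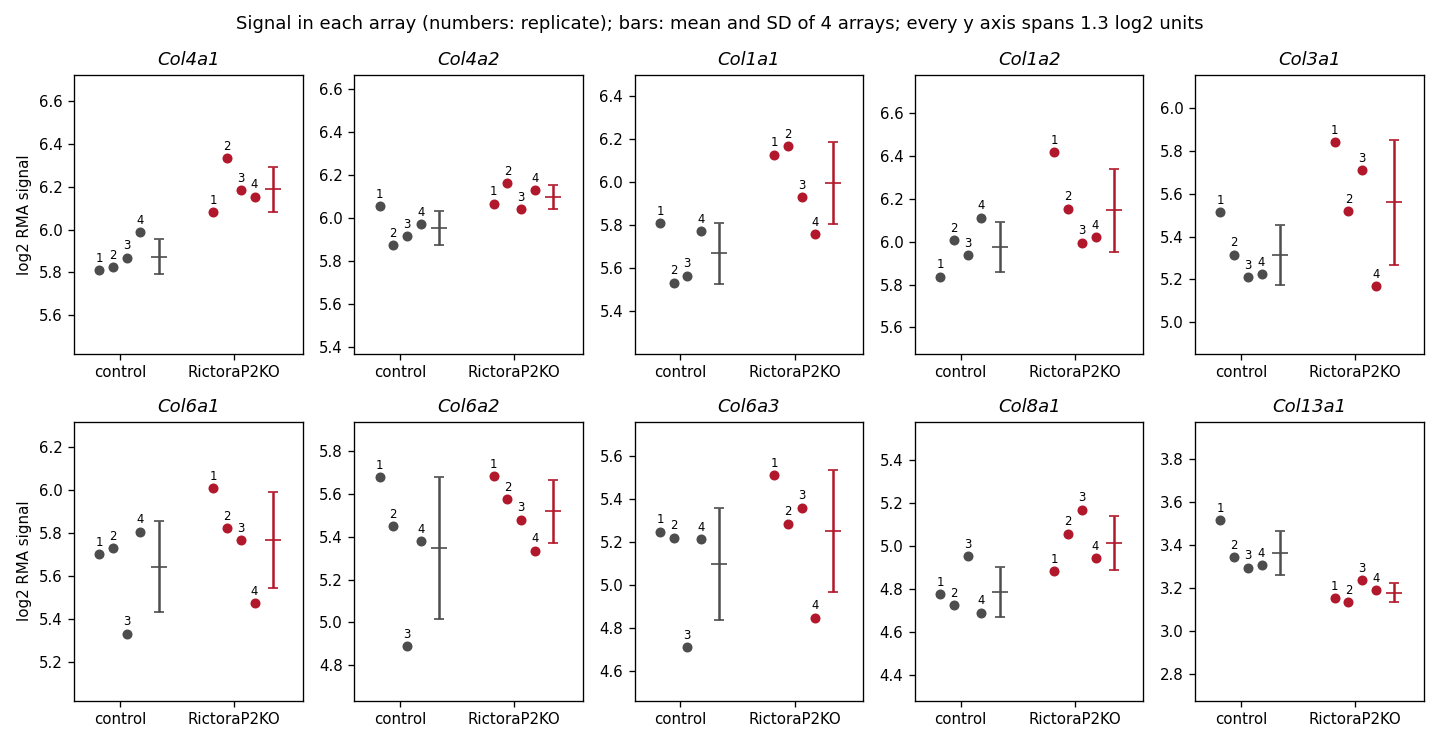
Log2 RMA signal (y axis) of 10 collagen genes in the 4 control and 4 RictoraP2KO arrays; numbers beside points are replicate numbers, bars are mean and SD, and each panel spans the same height. The groups are apart for Col4a1 and Col13a1, and control replicate 3 is the lowest array for Col6a1, Col6a2 and Col6a3.

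Type VI collagen is assembled mainly from the chains encoded by Col6a1, Col6a2 and Col6a3, the last also the source of the adipose peptide endotrophin. Col6a1 stood at 6.01, 5.82, 5.77 and 5.47 in RictoraP2KO replicates 1 to 4 and at 5.70, 5.73, 5.33 and 5.81 in control replicates 1 to 4. Col6a2 stood at 5.68, 5.57, 5.48 and 5.34 in RictoraP2KO replicates 1 to 4 and at 5.68, 5.45, 4.89 and 5.38 in control replicates 1 to 4. Col6a3 stood at 5.51, 5.29, 5.36 and 4.85 in RictoraP2KO replicates 1 to 4 and at 5.25, 5.22, 4.71 and 5.21 in control replicates 1 to 4. All 3 genes had their lowest value in control replicate 3, the array with neuron signal, and their lowest RictoraP2KO value in replicate 4.

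The groups overlapped for each of these chains. Differences were 0.13 (SE 0.135) for Col6a1, 0.17 (SE 0.157) for Col6a2 and 0.15 (SE 0.166) for Col6a3, with limma adjusted p-values of 0.858, 0.839 and 0.858. Without control replicate 3 they were 0.021, 0.016 and 0.025, and without RictoraP2KO replicate 1 they were 0.045, 0.11 and 0.067. Without RictoraP2KO replicate 4 they were 0.22, 0.23 and 0.29. Without the 3 arrays they were -0.0043, -0.0285 and 0.0095. The size of these differences thus depended on single arrays, and among single omissions it was smallest without control replicate 3. Col6a4, Col6a5 and Col6a6 encode alternative chains; they differed by -0.010, 0.099 and 0.092, and for Col6a5 and Col6a6 the dimmer probe set had the opposite sign (-0.096 and -0.090). Col6a6 differed by 0.22 without the 3 arrays and by 0.0076 without RictoraP2KO replicate 1.

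Type VIII collagen is made by endothelial and smooth muscle cells of vessel walls. Col8a1 stood at 4.88, 5.06, 5.17 and 4.94 in RictoraP2KO replicates 1 to 4 and at 4.78, 4.72, 4.95 and 4.69 in control replicates 1 to 4. Control replicate 3 lay within the RictoraP2KO range and the other control arrays lay below it. The difference was 0.23 (SE 0.085, 95% interval 0.035 to 0.42; limma unadjusted p = 0.026, adjusted p = 0.668), and it was 0.27 without the 3 arrays. Its partner gene Col8a2 differed by -0.082 at a signal below the array median.

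Col13a1, which encodes a transmembrane collagen of cell adhesion sites, ran the other way. It stood at 3.15, 3.14, 3.24 and 3.19 in RictoraP2KO replicates 1 to 4 and at 3.52, 3.34, 3.30 and 3.31 in control replicates 1 to 4. Every RictoraP2KO array lay below every control array, by as little as the step from 3.30 to 3.24. The difference was -0.19 (SE 0.066; limma unadjusted p = 0.021, adjusted p = 0.661), and -0.22 without the 3 arrays. All 8 values lay below the array median, so no fold is given.

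The fibril-associated collagens of types XII and XIV differed by 0.32 (SE 0.210) for Col12a1 and 0.19 (SE 0.125) for Col14a1. Col12a1 ran from 5.30 to 5.97 in RictoraP2KO arrays and from 4.89 to 5.68 in control arrays, with the highest values in RictoraP2KO replicates 3 and 4. Its difference was 0.19 without control replicate 2, 0.20 without RictoraP2KO replicate 3 and 0.30 without the 3 arrays. Col14a1 was highest in RictoraP2KO replicate 1, at 7.06, where the other 7 arrays lay between 6.33 and 6.62, and its difference was 0.066 without that array. Col20a1, of the same structural group, differed by 0.085, and its dimmer probe set by 0.072. The other members of that group lay below the array median. Col9a1 differed by -0.052, Col9a2 by -0.12, Col16a1 by -0.066, Col19a1 by -0.13 and Col22a1 by -0.020.

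The last members also lay below the array median. Of the transmembrane collagens, Col17a1 of epithelial hemidesmosomes differed by 0.016, Col23a1 by 0.051 and Col25a1 by 0.054. Col10a1, of hypertrophic cartilage, differed by -0.090, Col26a1 by -0.062 and Col28a1 by -0.043. For the 23 collagens that are neither fibrillar nor of basement membranes, the median difference was 0.016, with 12 above 0.

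Each of the 3 classes thus held differences of either sign, and a difference between classes was not tested. An array mean was also taken for each class, by averaging how far its genes lay in that array from their own means on the log2 scale. For fibrillar collagens it ran from -0.093 to 0.12 in RictoraP2KO and from -0.0995 to -0.0056 in control arrays. For basement membrane collagens the ranges were -0.084 to 0.12 and -0.067 to 0.022, and for other collagens -0.057 to 0.091 and -0.089 to 0.037. The groups overlapped in all 3 classes.

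The family was also split by signal, after the values were seen. Of the 20 collagens with a mean above the array median, 17 had a difference above 0, where 46.1% of the 10411 genes above the median did; their median difference was 0.15, against -0.0105 for those genes. The difference was above 0.1 for 13 of the 20, where 20.5% of genes above the median were, and the groups did not overlap for 1, Col4a1, where 1.39% of those genes were higher with no overlap. The exceptions were Col18a1, Col2a1 and Col27a1. Of the 22 collagens below the array median, 5 were above 0, with a median of -0.048. Col2a1, at a mean of 3.78, lay just above the line and Col9a2, at 3.51, was the nearest below it. At an unadjusted p under 0.05, 4 of the 20 were higher, where 3.09% of genes above the median were (limma).

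The arrays were uneven in these 20 genes. RictoraP2KO replicate 1 held the highest value for 12 of the 20 and RictoraP2KO replicates 2 and 3 for 3 each, while RictoraP2KO replicate 4 held it for 0 and the lowest value for 4. Their array means were 0.19, 0.039, 0.12 and -0.066 in RictoraP2KO replicates 1 to 4 and -0.0099, -0.11, -0.14 and -0.018 in control replicates 1 to 4, so RictoraP2KO replicate 4 lay below control replicates 1 and 4. Without RictoraP2KO replicate 1 the median of the 20 genes was 0.066 with 16 above 0 (47.1% of genes above the array median). Without control replicate 3 it was 0.070 with 17 above 0. Without the 3 arrays with signal of another tissue it was 0.096 with 14 above 0 (47% of genes above the array median), and 1 collagen, Col4a1, then had an unadjusted p under 0.05, where 4.38% of genes did.

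**Figure D3:**
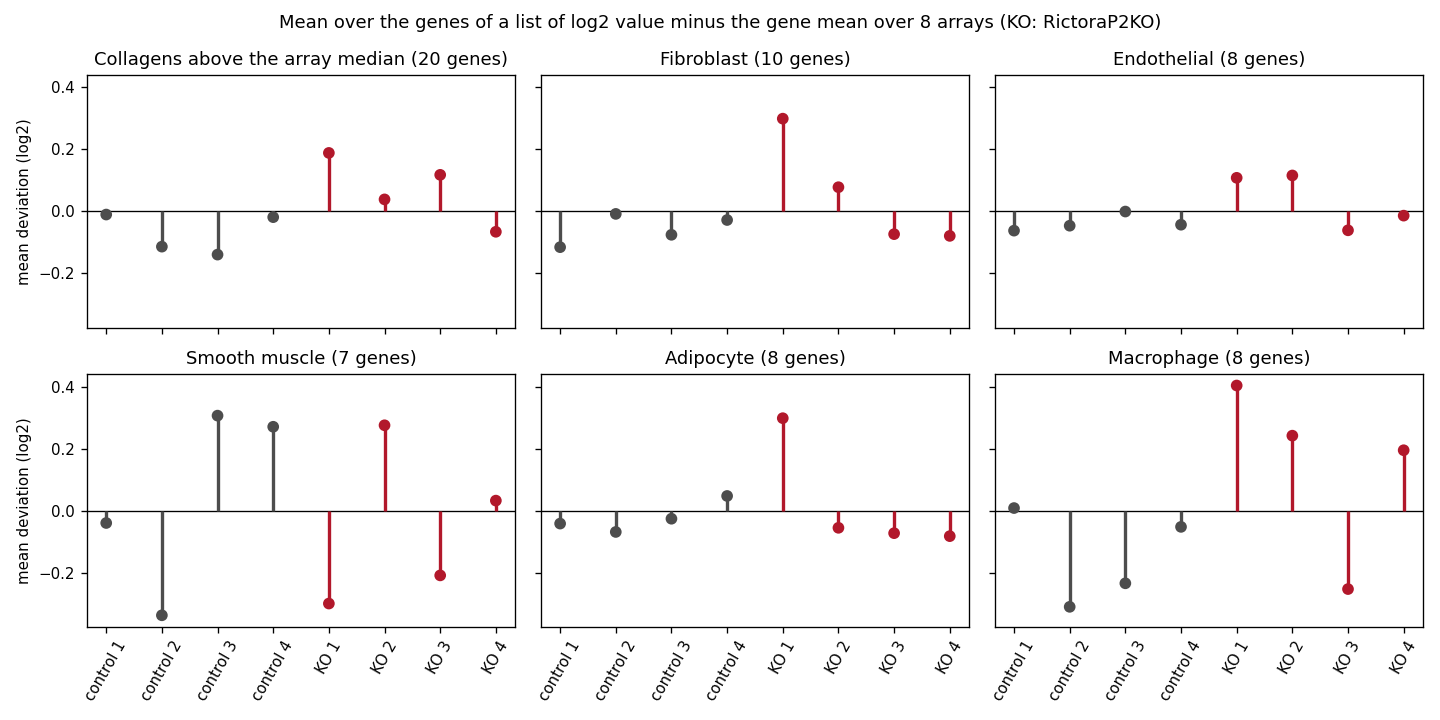
Mean deviation (log2, y axis) in each of the 8 arrays for the 20 collagens above the array median and for 5 marker lists; KO is RictoraP2KO. RictoraP2KO replicate 1 is the highest array for collagens, fibroblast, adipocyte and macrophage markers, its adipocyte mean resting mainly on Lep. RictoraP2KO replicate 3 is high for collagens and below 0 for the fibroblast, endothelial and macrophage lists.

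Markers of the tissue's cell types are set beside these values. Fibroblast markers, such as Pdgfra and Dcn, had 9 of 10 members above 0 and a median of 0.12; their array mean reached 0.30 in RictoraP2KO replicate 1, while the other 7 arrays lay between -0.12 and 0.078. Their summed linear signal ran from 3125 to 4305 in RictoraP2KO and from 3082 to 3536 in control arrays, and 0 of them lay below the array median. Of that list 1 gene had no overlap between the groups, Pdgfrb, which marks mural cells as well as fibroblasts and differed by 0.21. Among endothelial markers 1 had none, Kdr, a receptor for VEGF, which differed by 0.24; 1.5% of all genes were higher with no overlap. Endothelial markers had 5 of 8 members above 0, with sums of 2341 to 2697 and 2315 to 2512, and smooth muscle markers 2 of 7, with sums of 614 to 1083 and 653 to 908. The smooth muscle count and sums include Des, which differed by 0.12. It stood at 8.82 in RictoraP2KO replicate 2, the array with skeletal muscle signal, and between 7.49 and 7.97 in every other array. Macrophage markers had 8 of 8 above 0 and a median of 0.33, with sums of 1017 to 1510 and 899 to 1243, and 0 of them passed. Adipocyte markers had 5 of 8 above 0 and a median of 0.011, with sums of 12258 to 13177 and 12539 to 13419. Brown fat markers had 2 of 6 above 0, with sums of 5208 to 9017 and 5595 to 8263. Their array mean was -0.81 in RictoraP2KO replicate 1, the array with the most collagen maxima, and between -0.30 and 0.50 elsewhere. That -0.81 rested mainly on Elovl3, at 6.84 there and between 8.29 and 10.75 in every other array. The other members lay below their own means there by less. The part of any of these cells in the collagen values was not tested.

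**Figure D4:**
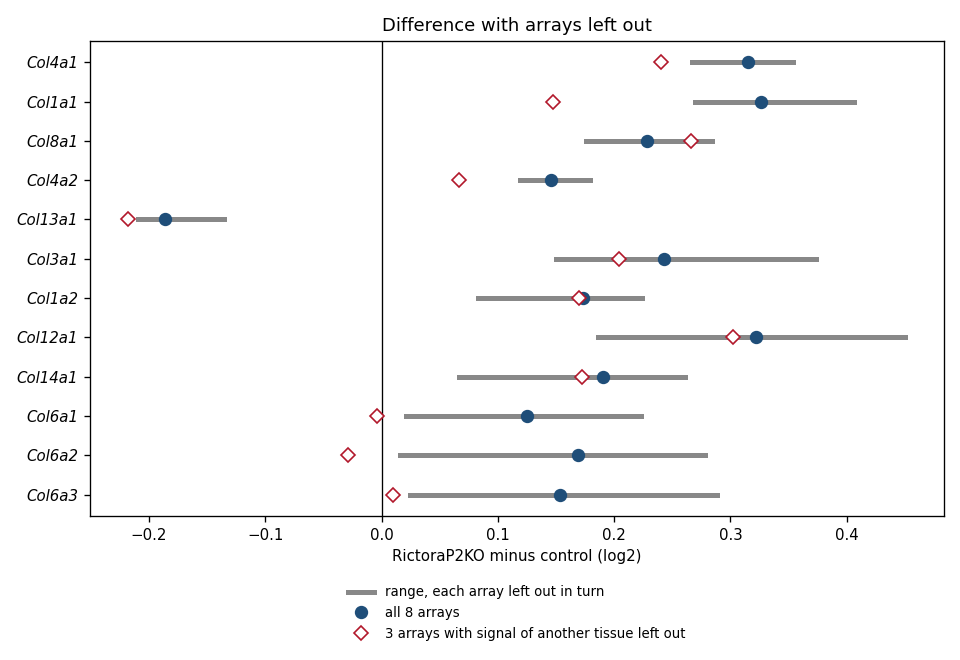
Difference between RictoraP2KO and control (log2, x axis) for 12 collagens with all 8 arrays (dots), as a range with each array left out in turn (grey bars) and with the 3 arrays of uneven tissue signal left out (diamonds). Col4a1, Col1a1, Col8a1, Col12a1 and Col3a1 stay above 0.1 in every case shown, Col13a1 stays below 0, and the diamonds of Col6a1, Col6a2 and Col6a3 lie near 0.

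Collagen chains are hydroxylated, folded and glycosylated in the endoplasmic reticulum, trimmed after secretion and crosslinked by lysyl oxidases. Of the 28 measured genes of synthesis and crosslinking, 0 passed, 13 were above 0 and the median was -0.0073. Loxl2, a lysyl oxidase that also crosslinks type IV collagen, stood at 4.68 ± 0.07 in RictoraP2KO and 4.38 ± 0.21 in control arrays (SD, n = 4). It was 1 of the 28 with no overlap between the groups, where 1.5% of all genes were higher with no overlap. It has 2 probe sets, and the values are those of the brighter. It differed by 0.30 (SE 0.101; limma adjusted p = 0.651), and by 0.12 without the 3 arrays. P4ha2, a subunit of prolyl hydroxylase, stood at 3.71 ± 0.12 in RictoraP2KO and 4.03 ± 0.22 in control arrays (SD, n = 4) and differed by -0.33 (SE 0.114; limma adjusted p = 0.655). Lox differed by 0.27 (SE 0.194), and by 0.17 to 0.42 as each array was left out in turn.

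Of 13 genes of collagen breakdown and uptake, 0 passed and 12 were above 0, with a median of 0.14. The list pools enzymes with their inhibitors. Of the inhibitors, Timp1 (0.23), Timp2 (0.20) and Timp4 (0.13) were above 0 and Timp3 (-0.0385) was below, so the count is not one of breakdown enzymes alone. Mmp9, a gelatinase that cleaves type IV collagen, differed by 0.46 (SE 0.176; limma adjusted p = 0.668), Mmp8, a neutrophil collagenase below the array median, by 0.21 (SE 0.0998) and Fap, a protease of activated fibroblasts, by 0.29 (SE 0.164). Leaving out each array in turn gave 0.35 to 0.62 for Mmp9, 0.16 to 0.30 for Mmp8 and 0.19 to 0.39 for Fap. Of 8 collagen receptors, 0 passed and all 8 were above 0, with a median of 0.052. Ddr2, a receptor for fibrillar collagen, differed by 0.28 (SE 0.138), Itga11, an integrin chain of fibroblasts, by 0.24 (SE 0.164) and Lair1, an inhibitory receptor of leukocytes, by 0.064 (SE 0.063). Without RictoraP2KO replicate 1 the difference of Ddr2 was 0.15, without control replicate 2 that of Itga11 was 0.14, and without the 3 arrays that of Lair1 was 0.012. Of 13 genes of the TGF-beta pathway, the main inducer of collagen transcription, 0 passed and 11 were above 0, with a median of 0.13. The inhibitory Smad7 (0.21) is among those above 0, so the count is not one of pathway activity. Tgfbr1 differed by 0.13 (SE 0.069), Tgfbr3 by 0.18 (SE 0.126) and Ccn2, a matrix protein induced by TGF-beta, by 0.20 (SE 0.149), the last by 0.024 without the 3 arrays. Tgfbr1 differed by 0.077 without RictoraP2KO replicate 4, and Tgfbr3 by 0.092 without RictoraP2KO replicate 1 and 0.093 without control replicate 1. The array means of the breakdown list were highest in RictoraP2KO replicate 1 (0.21), as were those of the receptors (0.17) and of the TGF-beta list (0.12), the array that was also highest for fibroblast markers.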

How the data were processed

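The authors deposited 1 table of log2 values for 28371 probe sets of an Affymetrix mouse array and 8 samples, summarised by RMA; per the submitters' processing notes the software was Affymetrix Power Tools 1.10.2. All arrays share the same median of 3.76, so a difference in total RNA would not be seen. Per the labels' protocols, 5 µg of total RNA entered labelling. Gene names came from the platform's annotation, and genes were taken only from the 21158 probe sets with 1 symbol. The whole table was fitted with limma 3.58.1 in R 4.3.3 (lmFit, eBayes, two-sided), with no filter and no covariate; the procedure was tested on simulated data. Class medians and list counts are descriptions with no test. The array number limits the precision, and since nothing says that samples are separate animals, p-values cover only the spread among these samples, which may be technical. No 2 arrays were identical (correlations 0.989 to 0.995).

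The members, classes and lists were chosen with earlier results of these data known. By rule, every member is given with its difference; values in every array are given for Col1a1, Col1a2, Col3a1, Col4a1, Col4a2, Col6a1, Col6a2, Col6a3 and further members with an unadjusted p under 0.05; from each pathway list, members past the threshold or otherwise the 3 with the smallest p; and Rictor. Of the lists' entries, those without a probe set of their own were not used, among them Ppib, Fkbp10, Adamts2, Loxl3, Mmp15, Gp6 and Tgfbr2. Further marker lists gave array means between -0.35 and 0.62 for B cells, -0.51 and 0.58 for Schwann cells (2 genes), -1.55 and 2.01 for heart muscle, -0.082 and 0.090 for cartilage and -0.33 and 0.50 for mesothelium. Alternatives were a filter on dim probe sets, array weights, limma-trend, quantile normalisation again, robust eBayes, the replicate number as a block, centring on the median, the median over a gene's probe sets, and arrays left out. Promoter sequences came from RefSeq (GRCm38.p6).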

Additional observations from a re-analysis of the deposited data

Results flagged for a closer look

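In groups of 4 arrays, a value was marked where its gap to the nearest other array was most of the group's range, which chance does in about 5% of groups; 6 of 158 groups were marked, 2 of them among the 84 groups of collagen values. Col6a3 was 4.71 in control replicate 3, where the other control arrays lay between 5.21 and 5.25, and its difference was 0.025 without that array. Col4a4, below the array median, was 2.96 in control replicate 1, where the others lay between 3.197 and 3.203. Adipocyte markers had an array mean of 0.298 in RictoraP2KO replicate 1, where the others lay between -0.082 and -0.055. That mean rested mainly on Lep, which stood at 5.81 there and between 2.74 and 3.76 in every other array. In the same array Adipoq, Cidec, Lipe and Plin1 lay below their own means, and Fabp4, Pparg and Retn above. Array means were 1.23 for neuron markers in control replicate 3 (others -0.14 to -0.12), 2.98 for lung epithelial markers in control replicate 2 (others -0.60 to -0.29) and 1.29 for skeletal muscle markers in RictoraP2KO replicate 2 (others -0.27 to -0.21).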

How the results depend on the processing

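Under the 8 alternatives that left out 1 array and the 9 others, 0 of the 55 genes named were called, with a smallest limma adjusted p of 0.397. Not every alternative covered every gene, and 15 to 17 applied per gene. The filter dropped dim genes, and the median over a gene's probe sets was taken for collagens only. The count of collagens at an unadjusted p under 0.05, 5 with all arrays, was 3 with dim probe sets filtered out (and with them 22 members), 3 with the replicate number as a block, 1 with the 3 arrays of other tissue signal left out (fewer arrays), and 3 to 5 as each array was left out in turn; array weights gave 6 and limma-trend 4. It was 3 without RictoraP2KO replicate 2, control replicate 2 or control replicate 4. The share of all genes at such a p was 6.48% with all arrays and 6.71% without RictoraP2KO replicate 1. Without the 3 arrays it was 4.38%. For the other alternatives that share was not taken, so a change in their counts cannot be told from a change over all genes. Without dim probe sets the median difference was 0.15 for all collagens, 0.092 for fibrillar, 0.17 for basement membrane and 0.16 for other collagens, which again leaves only the brighter members. Same-numbered arrays of the groups did not deviate together (correlations -0.15, -0.027, 0.034 and 0.087), so the number was not taken as a pairing. Counts of the 20 brighter collagens above 0, an analysis chosen after seeing the data, ran from 14 to 17.

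Signs changed in 29 of 898 single-gene values, 17 of them on leaving out 1 array; the cause was not tested. With the 3 arrays left out, differences were -0.0285 for Col15a1, 0.0033 for Col16a1, 0.070 for Col28a1, 0.031 for Col2a1, 0.045 for Col4a4, 0.087 for Col4a6, -0.0355 for Col5a2, -0.0043 for Col6a1, -0.0285 for Col6a2 and -0.016 for Col6a5. With array weights they were 0.0042 for Col27a1 and -0.0038 for Col5a2. Ranges over single omissions that crossed 0 were -0.056 to 0.012 for Col11a2, -0.025 to 0.051 for Col17a1, -0.039 to 0.28 for Col20a1, -0.048 to 0.019 for Col22a1, -0.037 to 0.0018 for Col24a1, -0.12 to 0.024 for Col26a1, -0.25 to 0.042 for Col27a1, -0.085 to 0.016 for Col28a1, -0.066 to 0.016 for Col2a1, -0.025 to 0.092 for Col5a1, -0.033 to 0.12 for Col5a2 and -0.050 to 0.051 for Col6a4.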
